A study of Homo sapiens with 4 samples.

Results

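The nuclear genes for subunits of respiratory complexes I to V were followed in peak lists of H3K27ac, an acetylation of histone H3 found at active promoters and enhancers. Members were taken by symbol from the protein-coding genes of a RefSeq table of GRCh38.p14: the NDUF subunits without the NDUFAF assembly factors, SDHA to SDHD, the UQCR genes, the COX4I, COX5, COX6, COX7 and COX8 genes, and the ATP5 genes. This gave 88 of 20037 protein-coding genes, 38 in complex I, 4 in complex II, 9 in complex III, 17 in complex IV and 20 in complex V.

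All libraries came from K562, a human cell line established from chronic myeloid leukaemia in blast crisis. There was 1 H3K27ac library of cells exposed for 18 h to daunorubicin at 1 uM, an anthracycline that inserts into DNA and traps topoisomerase II, and 1 of untreated cells. An input library without antibody accompanied each of them. The study asked about enhancers that appear with the drug in acute myeloid leukaemia and about resistance to it. With 1 library per condition, and with no label that tells separate cultures apart, no difference below has a replicate check or a test.

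The respiratory chain sits in the inner mitochondrial membrane. Complexes I and II pass electrons from NADH and succinate to ubiquinone, complex III passes them to cytochrome c, and complex IV passes them to oxygen, while complex V uses the resulting proton gradient to make ATP. Most subunits are encoded in the nucleus, and their promoters are known for binding nuclear respiratory factor 1 (NRF1), ETS proteins such as GABPA, and YY1. Several complex IV subunits exist as a general isoform and a second isoform restricted to muscle, lung or testis.

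The daunorubicin list held 65118 peaks and the untreated list 38626, and their input lists held 87 and 92. No input peak lay in a member's window, defined as the gene span with 10 kb added before and after it. Read depth is unknown, and its part in the unequal number of peaks was not tested. Of 9 genes that mark erythroleukaemia cells such as K562, 8 had a daunorubicin peak and 7 an untreated peak within 1 kb of a gene end, GATA1 and KLF1 among them in both lists. Of 5 T cell genes 3 were marked in each list, and of 5 monocyte and granulocyte genes only LYZ. Of 5 genes each, B cell markers had 1 in both lists, hepatocyte markers 2 with daunorubicin and 1 untreated, and fibroblast markers 2 with daunorubicin and 1 untreated.

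Promoter sequences are shown first, because the results turn on peaks that lie over them. Each runs 5′ to 3′ on the gene's own strand, from 250 bases before the annotated start to 30 after it, as given by RefSeq for GRCh38.p14. Capitals mark 3 motifs, read on both strands: NRF1 (GCGC and TGCGC with 1 base of any kind between them), ETS (CCGGAAG) and YY1 (AANATGGCG). The promoters shown are of UQCRFS1, whose end peak scored highest of all member end peaks in both lists (chr19:29213122-29213401, minus strand), SDHA, with 4 NRF1 motifs (chr5:218070-218349, plus strand), and ATP5PF, whose start lies beside that of GABPA (chr21:25734875-25735154, minus strand). The others are UQCRH, under the widest peak at a member's start (chr1:46303448-46303727, plus strand), NDUFV1, where the daunorubicin peaks left the start uncovered (chr11:67606686-67606965, plus strand), and COX6A2, unmarked in both lists (chr16:31428331-31428610, minus strand). Apart from UQCRH, these were chosen after their values had been seen.
UQCRFS1: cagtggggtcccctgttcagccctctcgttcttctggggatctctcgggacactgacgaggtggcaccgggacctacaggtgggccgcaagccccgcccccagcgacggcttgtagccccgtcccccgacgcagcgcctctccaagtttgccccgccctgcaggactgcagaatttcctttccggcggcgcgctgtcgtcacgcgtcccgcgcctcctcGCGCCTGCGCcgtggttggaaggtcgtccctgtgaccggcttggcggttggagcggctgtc
SDHA: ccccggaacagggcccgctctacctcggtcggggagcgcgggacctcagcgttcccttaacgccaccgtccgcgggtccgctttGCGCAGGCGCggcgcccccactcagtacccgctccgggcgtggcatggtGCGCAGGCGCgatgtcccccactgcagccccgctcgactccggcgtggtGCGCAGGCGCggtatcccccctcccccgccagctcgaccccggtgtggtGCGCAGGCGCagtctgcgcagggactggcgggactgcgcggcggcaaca
ATP5PF: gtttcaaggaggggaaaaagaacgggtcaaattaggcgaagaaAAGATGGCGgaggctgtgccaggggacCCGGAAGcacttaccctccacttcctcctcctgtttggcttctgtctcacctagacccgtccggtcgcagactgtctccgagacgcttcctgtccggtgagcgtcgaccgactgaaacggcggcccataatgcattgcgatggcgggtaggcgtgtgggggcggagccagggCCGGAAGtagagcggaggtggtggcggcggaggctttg
UQCRH: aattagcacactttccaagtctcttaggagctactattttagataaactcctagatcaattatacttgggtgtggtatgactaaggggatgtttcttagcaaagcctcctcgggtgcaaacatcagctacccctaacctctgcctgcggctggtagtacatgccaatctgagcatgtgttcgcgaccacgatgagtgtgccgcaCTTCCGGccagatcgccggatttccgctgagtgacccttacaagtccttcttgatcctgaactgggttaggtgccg
NDUFV1: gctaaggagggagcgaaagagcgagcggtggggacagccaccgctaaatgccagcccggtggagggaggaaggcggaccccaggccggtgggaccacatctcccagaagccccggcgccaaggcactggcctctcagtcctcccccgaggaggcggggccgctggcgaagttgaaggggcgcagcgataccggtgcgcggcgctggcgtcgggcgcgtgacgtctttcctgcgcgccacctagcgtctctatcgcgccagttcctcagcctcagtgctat
COX6A2: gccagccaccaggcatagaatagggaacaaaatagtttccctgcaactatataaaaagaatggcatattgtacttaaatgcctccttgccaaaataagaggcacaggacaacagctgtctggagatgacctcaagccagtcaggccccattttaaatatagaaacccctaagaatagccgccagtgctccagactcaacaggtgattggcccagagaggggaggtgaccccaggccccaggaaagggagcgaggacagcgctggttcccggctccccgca

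Of the 88 members, 71 had an annotated start with its sequence in the promoter table. A YY1 motif was found in 17 of these 71 promoters (23.9%, 95% Wilson interval 15.5 to 35), counting 250 bases before to 50 after the start, against 5.59% of all 15842 protein-coding genes in the table. Among genes with an end marked in both lists, the share was 8.54%. In 12 members the YY1 motif was read on the gene's own strand and lay after the start (16.9%, interval 9.94 to 27.3), against 2.97% of all genes and 4.61% of genes marked in both lists. The motif holds the letters ATG, which can also be the start codon of a gene, and whether they are in these members was not tested. These 12 sites are shown because they fall at nearly the same place, beginning at bases 9 to 28 with the start counted as base 1, with the motif in capitals and 10 bases on either side.
COX6A1 (chr12:120438114-120438142): gtccagatcaAAAATGGCGgtagttggtg
NDUFA6 (chr22:42090729-42090757): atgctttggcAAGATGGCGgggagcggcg
NDUFA7 (chr19:8321343-8321371): tcgcggacggAAGATGGCGtccgccaccc
NDUFA9 (chr12:4649114-4649142): attgtgggaaAAGATGGCGgctgccgcac
NDUFB8 (chr10:100529836-100529864): gaagaaggtgAAGATGGCGgtggccaggg
NDUFS3 (chr11:47579079-47579107): gcatctgagtAACATGGCGgcggcggcgg
NDUFS4 (chr5:53560650-53560678): tgcctgcagcAAGATGGCGgcggtgtcaa
NDUFS6 (chr5:1801405-1801433): ccagcggcgcAAAATGGCGgcggcgatga
NDUFS7 (chr19:1383914-1383942): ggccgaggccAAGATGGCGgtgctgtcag
SDHB (chr1:17054004-17054032): gtcaggagccAAGATGGCGgcggtggtcg
UQCR10 (chr22:29767386-29767414): actgtgaagaAACATGGCGgccgcgacgt
UQCRC1 (chr3:48609605-48609633): ctgcagctggAAGATGGCGgcgtccgtgg

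Of these 12 members, 8 code for complex I, including NDUFS3 and NDUFS7 of its iron-sulfur core and NDUFS4, an accessory subunit mutated in Leigh syndrome. The others were SDHB, the iron-sulfur subunit of complex II, UQCR10 and UQCRC1 of complex III, and COX6A1 of complex IV. Promoters were searched for 33 genes of complex I, 3 of complex II, 7 of complex III, 14 of complex IV and 14 of complex V. None of the 14 complex V genes searched had such a site, and the remaining complex V genes were not searched. All 12 members with such a site had an end peak in both lists.

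An NRF1 motif was also found in 17 of 71 member promoters (23.9%, interval 15.5 to 35), against 9.66% of all genes and 14.2% of genes marked in both lists. SDHA, the flavoprotein that oxidises succinate, held 4, beginning at bases -166, -117, -68 and -19 from its start, and NDUFB4 held 3. The ETS motif was found in 29.6% of member promoters, against 16.5% of all genes and 23.5% of genes marked in both lists, and ATP5PF held a copy that begins at base -8 from its start. Of the other motifs, SP (GGGCGG) was found in 63.4% of member promoters, against 64.3% of all genes and 77.2% of genes marked in both lists, and the CCAAT box (CCAAT) in 36.6%, against 42.1% and 42.9%. The CRE (TGACGTCA) was found in 5 members (7.04%, against 3% of all genes and 3.93% of genes marked in both lists), and the TATA box (TATAAA) in 7 (9.86%, against 12.4% and 7.89%). The ERRA motif (TCAAGGTCA) was found in 1 member, SDHD (1.41%, against 0.335% of all genes and 0.178% of genes marked in both lists). None of these motifs contains another, and a match describes letters, not a bound factor.

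**Figure D1:**
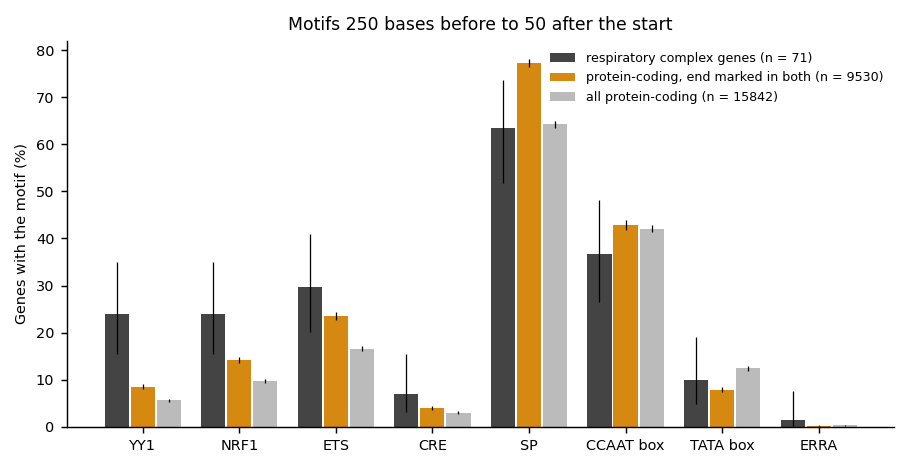
Share of genes (%) with each motif 250 bases before to 50 after the start, for respiratory complex genes, protein-coding genes with an end marked in both H3K27ac lists, and all protein-coding genes. Bars show shares and lines 95% Wilson intervals; YY1 and NRF1 stand at 23.9% of respiratory complex genes, against 5.59% and 9.66% of all genes.

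Many member promoters are shared with a second gene. Of the 71 members with a start, 23 had the start of another protein-coding gene on the opposite strand within 1 kb (32.4%, interval 22.7 to 43.9), against 13.6% of all genes. The starts were 9 to 677 bp apart, with a median of 167 bp. The closest pair was UQCRQ, a small subunit of complex III, and GDF9, a growth factor of the oocyte, 9 bp apart. ATP5PF, the coupling factor 6 subunit of ATP synthase, started 68 bp from GABPA, which codes for the ETS protein named above. UQCRH and LRRC41 were 82 bp apart, NDUFA1 and RNF113A 99 bp, and COX4I1 and EMC8 151 bp. A peak at such a place cannot be assigned to either gene of the pair.

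H3K27ac marked the promoters of the respiratory chain in both conditions, and marked the same genes. A peak within 1 kb of an annotated end was found for 76 of 88 members with daunorubicin (86.4%, interval 77.7 to 92) and for 76 untreated, where the shares over all protein-coding genes were 62.5% with daunorubicin and 58.4% untreated. These were the same 76 genes. No member was marked only with daunorubicin, against 4.91% of all genes, and none only untreated, against 0.749%. The remaining 12 members had no end peak in either list. By complex, ends were marked in both lists for 36 of 38 genes of complex I, 4 of 4 of complex II, 8 of 9 of complex III, 10 of 17 of complex IV and 18 of 20 of complex V.

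**Figure D2:**
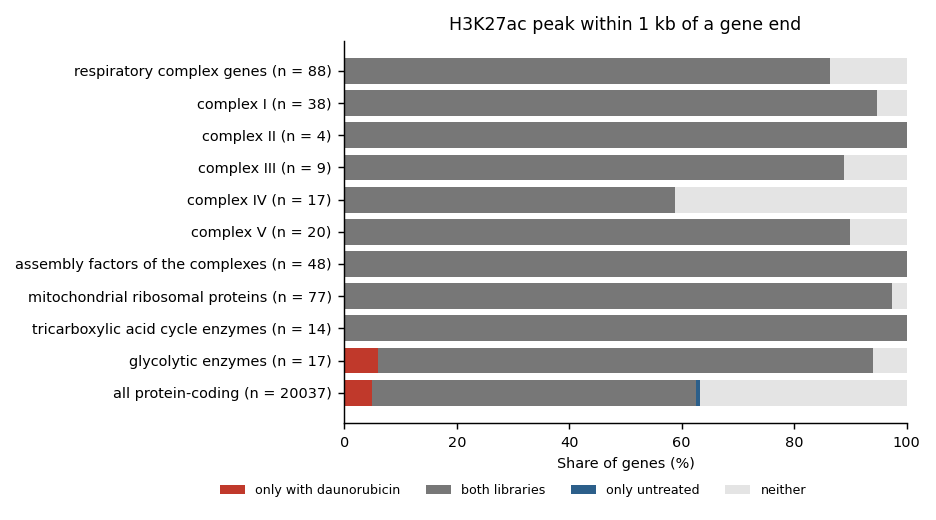
Share of genes (%) with an H3K27ac peak within 1 kb of an annotated end only with daunorubicin (red), in both libraries (dark grey), only untreated (blue) or in neither (light grey), for the respiratory complex genes, their complexes, 4 other gene lists and all protein-coding genes. The bars of complexes I to V hold no red and no blue part, and complex IV has the longest light grey part, 7 of 17 genes.

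Among the 12 members without an end peak, 4 genes of general subunits had a peak inside the gene in both lists. NDUFA5, of the complex I matrix arm, had a daunorubicin peak at chr7:123556802-123558502 (score 235) and an untreated peak at chr7:123557029-123558275 (score 444). COX7A2, the general isoform of its complex IV subunit, had a daunorubicin peak at chr6:75242541-75244701 (score 191) and an untreated peak at chr6:75242603-75244592 (score 193). COX7A2L, which takes part in joining complexes III and IV into supercomplexes, had a daunorubicin peak at chr2:42359711-42361969 (score 196) and an untreated peak at chr2:42360344-42361961 (score 264). In these 3 genes the peaks covered an annotated start that lies inside the longest span of the gene. ATP5MC2, a gene for subunit c of the ATP synthase rotor, did so too, with a daunorubicin peak at chr12:53674924-53676139 (score 378) and an untreated peak at chr12:53675085-53676461 (score 343).

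A further 7 of the 12 were restricted isoforms or copies. COX4I2 is the lung isoform of subunit 4, COX6A2 and COX7A1 are the heart and muscle isoforms of their subunits, COX7B2 and COX8C are testis isoforms, and UQCRHL and ATP5MGL are further copies of UQCRH and ATP5MG. COX6A2, COX7B2 and COX8C had no peak in their windows in either list. The peak nearest to COX7B2 was 244769 bp away with daunorubicin and 553750 bp untreated. Of the general counterparts, COX7A2 had its peak inside the gene, as given above, and the following had an end peak in both lists. The end peak of COX4I1 scored 263 with daunorubicin and 427 untreated, that of COX6A1 187 and 163, that of COX7B 169 and 171, and that of COX8A 290 and 398. Scores are the authors' own values per peak and rank peaks only within a list. COX6B2, a testis isoform that did have an end peak, held the lowest end score of all members in each list, 36 with daunorubicin and 44 untreated, against 82 and 227 for its general counterpart COX6B1.

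In the plot of peaks around starts, most members carried 1 peak that spanned the start in both lists. A daunorubicin peak covered an annotated start in 63 of 71 members (88.7%, interval 79.3 to 94.2) and an untreated peak in 68 (95.8%, interval 88.3 to 98.6), where the shares over all genes in the table were 54.1% and 54.9%. The daunorubicin peaks reached a median of 711 bp upstream and 920 bp downstream of the start, and the untreated peaks 735 and 845 bp. No member had its start covered only with daunorubicin, against 6.77% of the genes with a daunorubicin peak over the start.

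**Figure D3:**
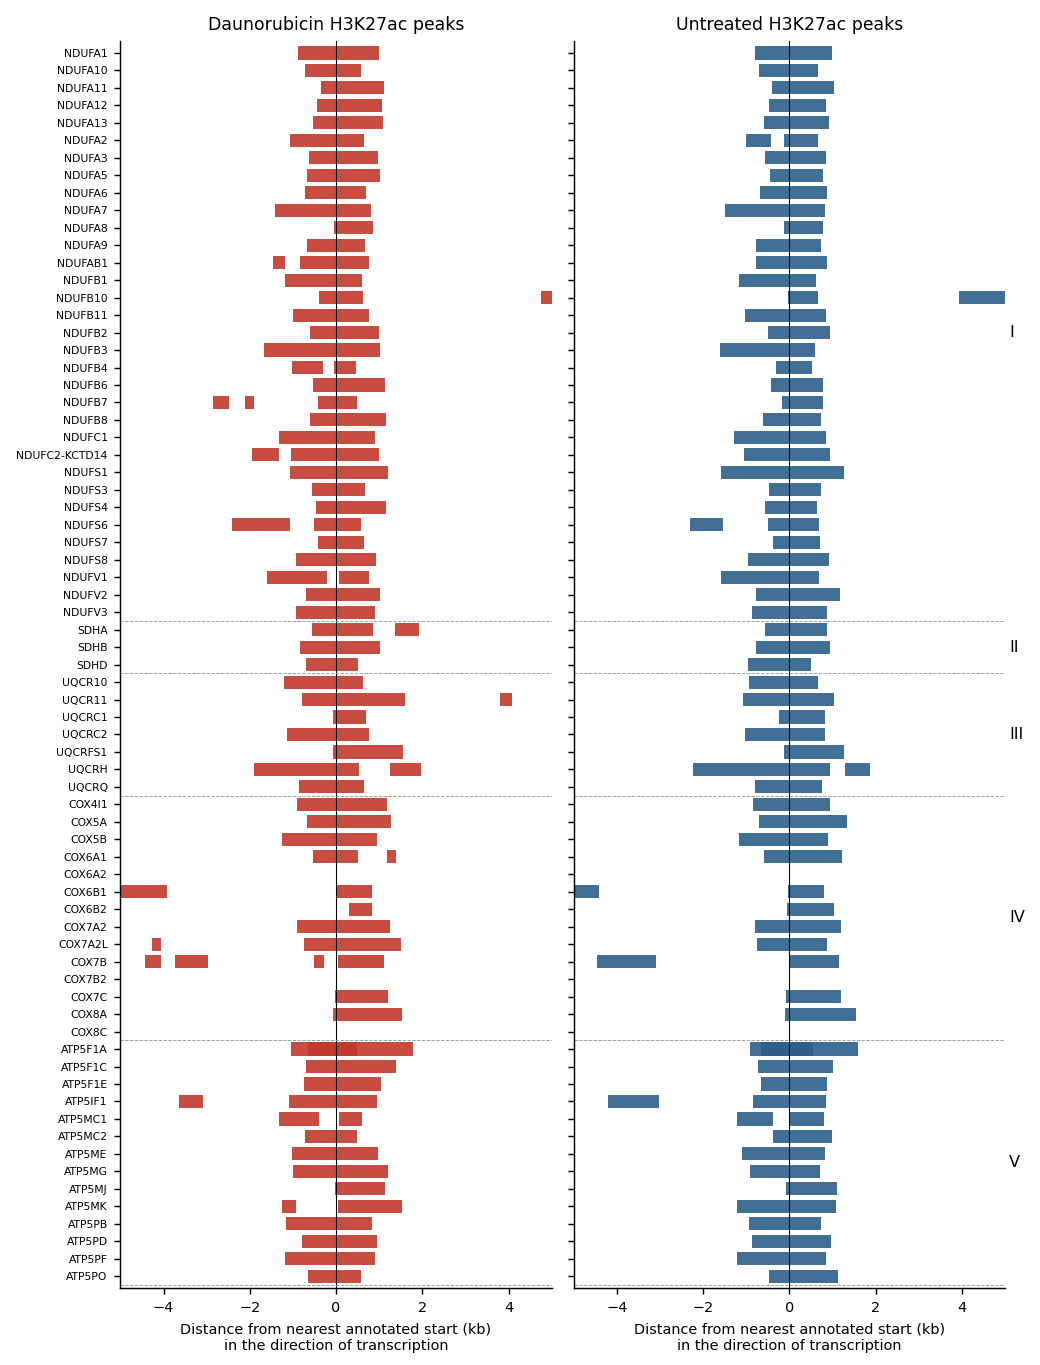
H3K27ac peaks within 5 kb of an annotated start for the 71 members with a start in the promoter table, daunorubicin on the left and untreated on the right, with the distance from the peak's nearest start in kb along the direction of transcription. Rows are genes grouped by complex; where a gene has several starts, bars of different peaks can overlap. Peaks cover the start in 63 members with daunorubicin and 68 untreated, and the rows of COX6A2, COX7B2 and COX8C are empty.

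The 5 starts covered only in the untreated list were those of NDUFV1, ATP5MC1, ATP5MK, COX6B2 and COX7B, or 7.35% of 68, against 8.05% of all genes with an untreated peak over the start. In each, the nearest daunorubicin peak ended 40 to 306 bp from the gene's end. NDUFV1 codes for the subunit that binds NADH and flavin. Its untreated peak ran over the start as 1 stretch, chr11:67605357-67607613 (2257 bp, score 114), while the daunorubicin list held 2 peaks there, chr11:67605345-67606726 (1382 bp, score 204) and chr11:67607012-67607696 (685 bp, score 36). The gap between the daunorubicin peaks took in the annotated start and most of the NDUFV1 promoter bases printed above. The untreated start peak was overlapped by at least 2 daunorubicin peaks in 4 members (5.88%, against 11.1% of all genes): NDUFV1, ATP5MK, COX6A1 and NDUFB4. In 1 member, NDUFA2, a single daunorubicin peak overlapped 2 untreated ones.

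Member end peaks ranked high in both lists. The median member's best end peak stood at percentile 93.2 of the daunorubicin list and 91.0 of the untreated list, where the medians over all genes marked in both were 88.9 and 84.8. UQCRFS1, the Rieske iron-sulfur protein of complex III, scored highest of the members in both lists, 450 with daunorubicin and 696 untreated. With daunorubicin it was followed by NDUFB4, a membrane-arm subunit of complex I, at 383, NDUFA10 at 330, COX6C and NDUFA6 at 293 and COX8A at 290. Untreated it was followed by NDUFS7 at 581, ATP5MC3 at 513, NDUFB4 at 465 and COX4I1 at 427. At the low end with daunorubicin stood COX6B2, UQCR11 at 49, NDUFB10 at 73, NDUFA3 at 78 and COX6B1 at 82. At the low end untreated stood COX6B2, ATP5MK at 76, NDUFB11 at 92, SDHB at 111 and NDUFV1 at 114.

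Within 1 kb of gene ends, the length covered by peaks was nearly the same in both lists. Over the 76 marked members it had a median of 1531.5 bp with daunorubicin and 1545.5 bp untreated. It was longer with daunorubicin in 36 members, shorter in 39 and equal in 1, where 59% of the protein-coding genes with an end marked in either list were longer and 56.2% of those with an end marked in both. The median difference, daunorubicin minus untreated, was -9 bp (quartiles -63.5 and 113.75) for members, 44 bp for genes marked in either list and 29 bp for genes marked in both. All 76 members were marked in both lists, so genes marked in both are the nearer comparison. No member was longer by 1.5 times or more, against 14.8% of genes marked in either list and 7.74% of genes marked in both. By as much, 5 members were shorter, against 4.9% and 4.09%.

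The 5 that were shorter at their ends belonged to complexes III, IV and V. ATP5MK, a small membrane subunit of ATP synthase, had 1023 bp with daunorubicin and 2001 bp untreated. COX6A1 had 1032 and 1581 bp, and COX6B2 518 and 1059 bp. UQCRC1, a core protein of complex III, had 773 bp with daunorubicin and 1301 bp untreated, and ATP5F1D, the delta subunit in the central stalk of ATP synthase, had 445 and 825 bp. Of the untreated length of UQCRC1, 239 bp lay in a region with a score of 20 at its 3′ end. Its promoter peak was 773 bp wide with daunorubicin and 1062 bp untreated. In complex III, 7 of 8 marked genes were shorter at their ends with daunorubicin, and UQCR10 was the exception. The median difference there was -56 bp, and 4903 of 11548 genes marked in both lists were shorter. This length stops 1 kb from an end. The full width of the best end peak was larger with daunorubicin in 5 of the 8, with medians of 1802.5 bp with daunorubicin and 1579.5 bp untreated. The largest gain in this length was that of NDUFB6, with 3234 bp with daunorubicin and 2467 bp untreated. Part of it lay at the 3′ end, where the highest-scoring end peak was 1803 bp wide with daunorubicin and 1700 bp untreated. The peak over the NDUFB6 start was 1672 bp wide with daunorubicin and 1205 bp untreated.

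Away from the ends the daunorubicin list covered more. In the whole window of span and 10 kb flanks, the marked length was longer with daunorubicin in 61 of the 85 members with a peak (71.8%) and shorter in 24, where 79.7% of all marked genes were longer and 20.3% shorter. The median difference was 244 bp (quartiles -53 and 935) for members and 538 bp for all marked genes, which are also longer, with a median gene length of 9589 bp for members and 24115 bp for all genes. The summed length was 1.19 times the untreated one for members and 1.4 times for all genes. It was longer by 1.5 times or more in 17 members (20%), against 37.2% of all marked genes, and shorter by as much in 2 (2.35%), against 2.4%. With the lists brought to equal numbers of top-scoring peaks, 48 members were longer and 37 shorter, the median difference was 67 bp, and 4 were longer and 4 shorter by 1.5 times or more. In that setting 61.7% of all marked genes were longer, their median difference was 170 bp, and 19.1% were longer by 1.5 times or more.

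**Figure D4:**
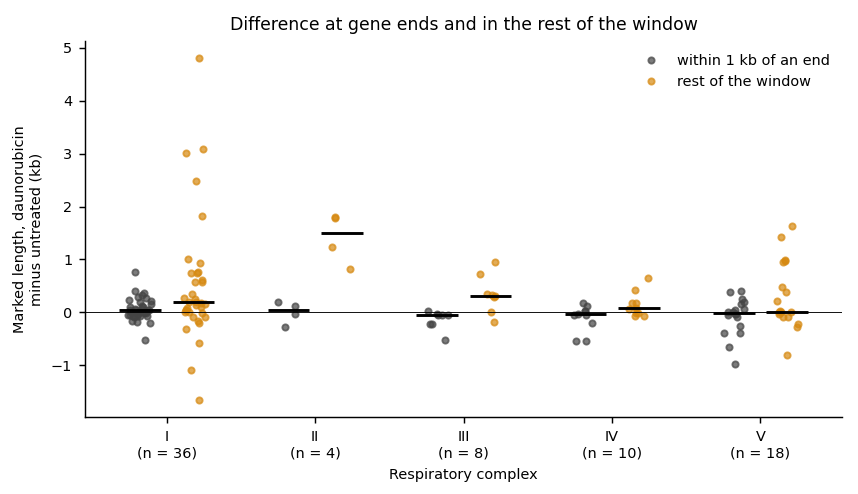
Difference in marked length, daunorubicin minus untreated, in kb, within 1 kb of a gene end (dark points) and in the rest of the window of span and 10 kb flanks (orange points), for the 76 members with a marked end. Each point is 1 gene and black lines are medians, -9 bp over all 76 at the ends and 188 bp in the rest.

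Split by place over the 76 members with a marked end, the differences summed to -1200 bp at the ends and 34369 bp in the rest of the windows. In the rest, 53 members were longer with daunorubicin, 20 shorter and 3 equal. This split was not computed over all protein-coding genes. Over the whole window, 69.7% of these 76 members were longer, against 78.1% of all genes marked in both lists. Among the complexes, II stood highest in the rest of the windows, with a median difference of 1501.5 bp over its 4 genes. Complex V stood lowest, with 16 bp over 18 genes. With so few genes in complex II this order is a description only.

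In complex I, NDUFS4 had 4801 bp marked with daunorubicin and 1482 bp untreated, a ratio of 3.24. Its promoter peak was 1631 bp wide with daunorubicin and 1226 bp untreated, wider by 405 bp. The rest of the daunorubicin length came from 3 regions found only with daunorubicin. Of these, 1 lay 6994 bp before the gene at chr5:53552179-53553645 with a score of 110, the highest of any such region near a member. In the gene body, 1 region of 256 bp was found only untreated (chr5:53568349-53568604, score 16). NDUFC2, a membrane-arm subunit, had 5360 bp with daunorubicin and 2305 bp untreated, and its readthrough transcript gene NDUFC2-KCTD14, which shares its end peak, had 12550 and 7681 bp. NDUFA8 had 1844 and 908 bp, NDUFB5 2905 and 1620 bp, NDUFB4 1419 and 847 bp, and NDUFB7 1479 and 952 bp. These 7 genes were the complex I members longer by 1.5 times or more.

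Of the redox core genes of complex I described here, NDUFV2, a subunit with an iron-sulfur cluster near the NADH site, was longer by the most, with 7534 bp with daunorubicin and 5120 bp untreated. NDUFS3 had 1484 and 1195 bp, and NDUFS8 3458 and 3312 bp. NDUFV1 had 3656 bp with daunorubicin and 3722 bp untreated, NDUFS7 2299 and 2650 bp, and NDUFS1, the largest iron-sulfur subunit, 2269 and 2851 bp. These 6 genes were split, 3 longer and 3 shorter, and none of them reached 1.5 times. NDUFA10 was the complex I gene shorter by 1.5 times or more, with 2566 bp with daunorubicin and 4319 bp untreated, of which 1194 bp lay in a region of the gene body found only untreated (chr2:239910755-239911948, score 23). The end peak of NDUFA10 was 1288 bp wide with daunorubicin and 1380 bp untreated. NDUFB10 had 3295 and 4050 bp.

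All 4 genes of complex II, succinate dehydrogenase, had a longer marked length with daunorubicin. SDHC, a membrane anchor, had 5180 bp with daunorubicin and 3184 bp untreated, and SDHB 4629 and 2740 bp, both past 1.5 times. SDHA had 4027 and 2822 bp, and SDHD, the other anchor, 2031 and 1473 bp. Every one of them had at least 1 region found only with daunorubicin, 4 each at SDHB and SDHC, 2 at SDHA and 1 at SDHD, where 48.9% of all protein-coding genes had such a region. These regions were weak, with scores of 14 to 34. SDHA, SDHC and SDHB span 50427, 48826 and 35311 bp and SDHD 8922 bp, where the member median is 9589 bp. Longer genes have larger windows, and the part of gene length in these counts was not tested. Within 1 kb of the ends, SDHA and SDHD were shorter with daunorubicin, SDHB and SDHC longer.

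In complex III, UQCRB, a subunit at the ubiquinone site, had 2206 bp with daunorubicin and 1271 bp untreated. UQCRHL, the copy without an end peak, had 1046 bp with daunorubicin and 0 bp untreated, from 2 regions in its flanks with scores of 87 and 56. UQCR11 had 4611 and 4099 bp. UQCRFS1, with the highest-scoring promoter peak, had 1624 bp with daunorubicin and 1380 bp untreated. UQCRH, the hinge protein, had 3372 and 3762 bp, UQCRC1 1408 and 1596 bp, and UQCRQ 1507 and 1564 bp. CYC1, the cytochrome c1 of complex III that the symbol rule does not include, had 3900 bp with daunorubicin and 3276 bp untreated, and CYCS, cytochrome c, had 1593 and 1936 bp.

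In complex IV, COX7A2L had 4878 bp marked with daunorubicin and 2576 bp untreated, and COX4I2 had 1575 and 530 bp, all of it away from its ends. COX6B1 had 2772 and 2095 bp. COX7A1 had 113 bp with daunorubicin and 431 bp untreated, and was the only complex IV gene shorter by 1.5 times or more. Both lists held a shared flank peak cut by the window's edge, 9888 bp from the gene with daunorubicin and 9809 bp untreated. The untreated list also held a flank peak of 239 bp with a score of 20, 8949 bp from the gene. COX6B2 had 2223 and 2772 bp, and COX6A1 3086 and 3450 bp. Of the other general isoforms, COX4I1 had 2081 bp with daunorubicin and 1786 bp untreated, COX7A2 2161 and 1990 bp, COX7B 4681 and 4567 bp, and COX8A 2583 and 2559 bp.

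In complex V, ATP5MG, a membrane subunit, had 4034 bp with daunorubicin and 2224 bp untreated, and ATP5F1C, the gamma subunit of the rotating stalk, had 3333 and 1734 bp. The subunit c genes ATP5MC1, ATP5MC2 and ATP5MC3, which code for the same mature protein, had 2332, 2824 and 3468 bp with daunorubicin and 1633, 1819 and 3054 bp untreated. All 3 were longer, and only ATP5MC2 passed 1.5 times. ATP5F1B, the catalytic beta subunit, had 5973 and 4923 bp, and ATP5F1A, the alpha subunit, 5535 and 5108 bp. ATP5MGL had 1804 and 1135 bp. ATP5IF1, the inhibitor of the ATPase, had 3882 bp with daunorubicin and 4441 bp untreated, ATP5PO, the subunit that ties the stator to the catalytic head, 2707 and 3316 bp, and ATP5MK 1805 and 2298 bp.

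**Figure D5:**
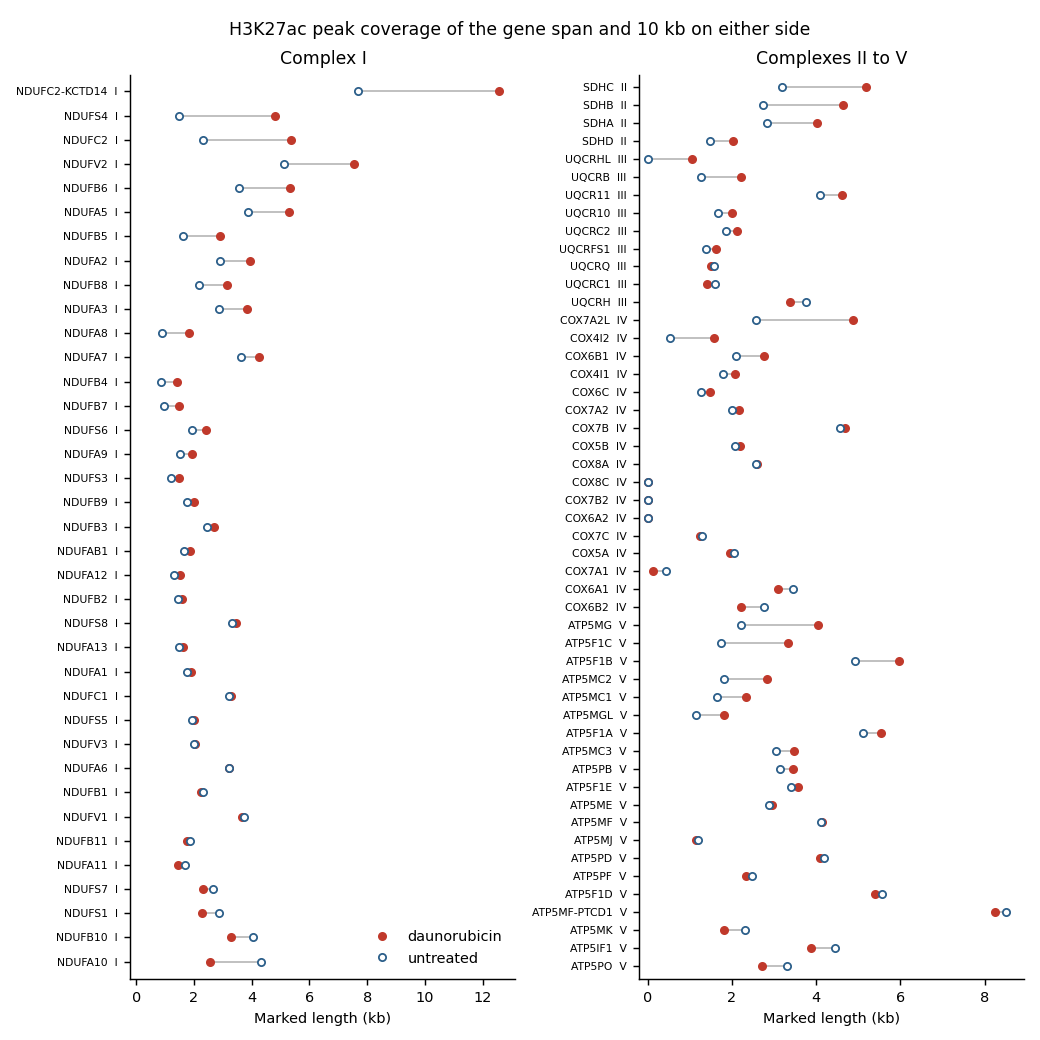
Length in kb covered by H3K27ac peaks in the span and 10 kb flanks of each member, with daunorubicin (filled red) and untreated (open blue), complex I on the left and complexes II to V on the right, sorted by the difference within a complex; 1 member is not shown. Red points lie to the right of blue in 60 of the members shown and to the left in 24; COX6A2, COX7B2 and COX8C stand at 0.

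Overlapping peaks of both lists were merged into regions, and the windows of members held 235. Of these, 161 were found in both lists (68.5%, interval 62.3 to 74.1), 63 only with daunorubicin (26.8%, interval 21.6 to 32.8) and 11 only untreated (4.68%, interval 2.63 to 8.19). Over the windows of all protein-coding genes the shares were 51.9%, 41.7% and 6.32%. At protein-coding ends 7.63% of the member regions were found only with daunorubicin, against 13.6% of all, and away from ends 51% against 51.6%. Of the member regions 131 of 235 lay at such ends, against 12931 of 49704 over all genes. When both lists were held to the same number of top-scoring peaks the order turned, with 18 regions only with daunorubicin and 26 only untreated. That setting drops peaks from the daunorubicin list alone, and its region shares over all genes were not computed.

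In member windows, peaks found in only 1 of the lists were narrow and scored low in both conditions. Their widths and scores were not computed over all genes. The 63 daunorubicin peaks in member windows with no untreated counterpart were 400 bp wide and scored 25 at the median, while the 170 that overlapped an untreated peak were 1413 bp wide and scored 135.5. The 11 untreated peaks with no daunorubicin counterpart were 290 bp wide and scored 20 at the median, while the 168 that overlapped one were 1329 bp wide and scored 177. Of the 63, 11 scored above 41, the median of the daunorubicin list. Of the genes, 37 of 88 had a region found only with daunorubicin (42%, against 48.9% of all genes), 10 had one found only untreated (11.4%, against 15.1%), and 44 had only shared regions (50%, against 26.4%). At member ends just 3 such regions were found only with daunorubicin, at ATP5F1B, COX7B and UQCRH, and 2 only untreated, at UQCRC1 and ATP5PB, and each of these genes also had an end peak in both lists. After that of NDUFS4, the highest-scoring regions found only with daunorubicin were those beside UQCRHL, at 87, and in the body of NDUFB5, at 81 (chr3:179615695-179616705).

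Genes that assemble or supply the respiratory chain were mostly marked at their ends as well. All 48 assembly factors had an end peak in both lists, as did 75 of 77 mitochondrial ribosomal proteins and 14 of 14 enzymes of the tricarboxylic acid cycle. Over all protein-coding genes the share was 57.6%. The median difference in marked length was 303 bp for assembly factors, against 538 bp for all marked genes. Of the assembly factors, 34 were longer (70.8%, against 79.7% of all marked genes) and 14 shorter. Mitochondrial ribosomal proteins had a median difference of 355.5 bp, with 56 longer (73.7%) and 20 shorter. For the cycle enzymes it was 500 bp, with 11 longer (78.6%) and 3 shorter. Of 17 glycolytic enzymes, 16 had an end peak with daunorubicin and 15 untreated. ENO2 was marked only with daunorubicin, or 5.88% of the 17, against 4.91% of all protein-coding genes. Their median difference was 240 bp, with 13 longer (76.5%) and 4 shorter.

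Of 15 transcription factors and coactivators of respiratory genes, 15 had an end peak with daunorubicin and 14 untreated. The exception was PPARGC1A, the coactivator PGC-1alpha, with 760 bp marked with daunorubicin and 0 bp untreated. Ends marked only with daunorubicin were thus 6.67% of these genes, against 4.91% of all protein-coding genes. NRF1 had 7386 bp with daunorubicin and 3020 bp untreated, and CREB1, which binds the CRE, 5462 and 2438 bp. YY1 had 4092 and 3486 bp, and GABPA, which shares its promoter with ATP5PF, 2072 and 2053 bp. Of the 15 genes, 12 were longer (80%, against 79.7% of all marked genes) and 3 shorter, and 4 were longer by 1.5 times or more (26.7%, against 37.2%). MYC was among the shorter ones, with 2900 bp with daunorubicin and 3366 bp untreated.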

How the data were processed

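H3K27ac ChIP-seq and input libraries of K562 cells, 1 of each per condition, were grouped by antibody and treatment as labelled. The submitters' processing notes name MACS2 2.1.1, deepTools 3.2.1 and Bowtie2 2.3.4.3, and both hg38 and hg19 as builds; the deposited lists carry hg38 sequence names. Not given in the sources used here are the parameters, the peak threshold, how the inputs were used and how the score of a peak was computed. For every library the authors deposited a separate peak list with a score per peak. The score was used only within a list, except as a common minimum in 1 alternative. Read counts were not used here, so depth is unknown.

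Genes came from a RefSeq table of GRCh38.p14, and strand, starts and sequences from its promoter table, which holds 71 of the 88 members. Coordinates count from 1. A gene was marked at an end if a peak lay within 1 kb of either annotated end, which can be the 3′ end. Marked length is the number of bp covered by peaks in the gene span with 10 kb added before and after it, and a peak in overlapping windows counts for each gene. Regions are merged peaks that overlap by at least 1 bp. Differences are daunorubicin minus untreated, and a fold of 1.5 or more, or a length of 0 in 1 list, counted as a call. Intervals of shares are 95% Wilson intervals and describe counting error alone. Overlaps were computed in Python 3.11.15 with pandas 2.3.3 and numpy 2.4.6, and tested on 500 simulated windows, with 0 wrong.

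The members, gene lists and alternatives were chosen with earlier results of these data known. Named members were those marked at an end in 1 list or in neither, the 3 largest gains and losses of marked length in each complex, those past the fold of 1.5, the isoform sets, the redox and catalytic core, and the 5 highest and 5 lowest end scores in each list. NDUFA4 and NDUFA4L2, listed among the isoform sets, carry other symbols in the table and are not members. For 1 member no values of its own are reported here, though the counts include it. Genes named for their starts, motifs, neighbours, end lengths or single regions, the other genes named and the promoters of all but UQCRH were chosen after their values were seen.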

Additional observations from a re-analysis of the deposited data

How the results depend on the processing

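No paired analysis was possible because each condition had 1 library and no result comes from a test. Under the alternatives, 90 values stayed close to the reported ones, 32 moved and 1 changed sign. The 90 include every value with input peaks removed and every value with chromosome Y left out. Those settings had nothing to change near members, as no input peak lay in a member's window and no member lies on chromosome Y. With a score of at least 43 in both lists, 1 end was marked only untreated, the median difference was 125 bp (315 bp over all marked genes), 7 members were longer by 1.5 times or more (31.1% of all marked genes), and 20 regions were found only with daunorubicin and 2 only untreated. With equal numbers of peaks, 37 members were shorter, the median was 67 bp (170 bp), 4 were longer (19.1%) and 4 shorter by 1.5 times or more, and 18 regions were found only with daunorubicin and 26 only untreated. With a peak over the end itself, 1 member was marked only with daunorubicin and 6 only untreated, and the shares over all genes were not computed. With the span and 50 kb, 13 were shorter, the median was 1067 bp (1312 bp), 28 were longer (40.5%) and 1 shorter by 1.5 times or more, and 376 regions were shared, 210 only with daunorubicin and 39 only untreated. With 10 kb around each end, 1 was shorter by 1.5 times or more. With 1 kb around each end, 36 were longer, 39 shorter and 1 equal, the median was -9 bp (44 bp), 0 were longer (14.8%) and 5 shorter by 1.5 times or more, and 80 regions were shared, 3 only with daunorubicin and 2 only untreated. A reciprocal overlap of 50% gave 41 regions only untreated, and a fold of 2 gave 5 longer and 1 shorter. End classes, region classes and calls at a fold of 2 were not computed over all genes under these alternatives. A stricter score leaves fewer peaks in both lists, and the window sets how much of each gene is counted. How far that accounts for the changes under those settings, the change of sign included, was not tested. The equal numbers were reached by dropping peaks from the daunorubicin list alone. Lower daunorubicin lengths, fewer regions found only with daunorubicin and more found only untreated follow from that. For the other changes the cause was not tested. The count of 76 marked ends per list was 75 to 76 under the stricter score and equal numbers of peaks. Lists without read depth limit what unequal peak numbers can show.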
